A study of Macaca mulatta with 24 samples.

Results

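Metallothioneins are small cysteine-rich proteins of the cytosol that bind zinc and copper. Their genes are switched on by zinc through the metal-sensing transcription factor MTF1, by glucocorticoids, by the cytokine IL6 and by oxidative stress. In brain, the MT1 and MT2 genes are known mainly from astrocytes, while MT3 encodes the brain form, first described as growth inhibitory factor and known from neurons and astrocytes. All 6 metallothionein genes with a signal in monkey cerebral cortex, MT3, MT2A, MT1E, MT1G, MT1H and MT1X, were followed over 3 diets, out of 9884 genes measured in all. The members were every probe listed for these genes on the beadchip that had a detection p under 0.01 on at least 4 of 24 arrays. Of the 8 probes listed for the 6 genes, 6 were kept, 1 for each gene.

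The tissue came from adult male rhesus monkeys aged 7 to 13 years, each given its diet for 24 months and each measured on 1 Illumina HumanHT-12 V4.0 array. In the standard diet (SD, n = 4), fat supplied 13% of kcal and sucrose made up less than 5% of weight. In the high-fat, high-sugar diet (HFS, n = 10), fat supplied 42% of kcal and sucrose 27% of weight. The HFS+R group (n = 10) ate the HFS diet with 2 treats a day, each holding 40 mg resveratrol (RSV), a plant polyphenol, during year 1 and 240 mg during year 2, whereas SD and HFS monkeys ate placebo treats. All monkeys had eaten ordinary monkey chow before, were housed individually, and were perfused with cold Ringer's solution before the brain was taken. The sample titles say only cerebral cortex. The study's methods give the tissue as temporal neocortex, whereas a figure legend of the study names frontal cerebral cortex.

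Arrays had median signals of 54.9 to 60.3 and detected between 11413 and 14890 probes. The lowest number came from SD replicate 3, which missed 349 probes that every other array detected, so values without it are given for the results that it moved most. The log2 signal of an array had an SD of 1.499 ± 0.0795 (SD, n = 4) on SD arrays, 1.42 ± 0.0521 (SD, n = 10) on HFS arrays and 1.48 ± 0.0489 (SD, n = 10) on HFS+R arrays. Levels are therefore given in 2 ways: as the deposited signal, in arbitrary units, and on a log2 scale after Z normalization, which sets each array to the same mean and SD. Differences between diets were tested on the second scale. All 8 measured neuron markers and all 10 measured astrocyte markers were detected on every array. In whole tissue, fewer cells of a type and less RNA per cell cannot be told apart. No slide or scan was named for any array, so batches were not tested.

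The human gene symbols cover a family of near-identical genes, and the identity of each probe in the monkey is uncertain. In the RefSeq annotation of the rhesus macaque (T2T-MMU8v2.0), 9 named metallothionein genes lie in 1 cluster, in the order MT4, MT3, MT2A, MT1L, MT1E, MT1M, MT1J, MT1A and, at the far end, MT1X. The stretch from MT4 to MT1X holds 19 protein-coding genes, of which 10 between MT1A and MT1X have no gene name. MT3, MT2A, MT1E and MT1X matched an entry of that name, and MT1G and MT1H matched none. A probe for one MT1 gene may therefore report RNA of another, and the match of probes to monkey sequence was not examined.

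The probes that were left out lay at background. The other MT1E probe (ILMN_1718968) was detected on 1 array with signals of 54.6 to 73.6, and the other MT1H probe (ILMN_1683923) on 0 arrays with signals of 45.4 to 61.4. The 6 probes for MT1B, MT1F, MT1IP, MT1L, MT1M and MT4 were detected on 0 arrays, with signals of 40.1 to 74.1. MT4 is known from stratified epithelium rather than brain. What can be said about the family in these samples thus rests on 6 probes, of which 5 were detected on all 24 arrays and that of MT3 on 23.

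MT3, the brain metallothionein, had signals of 4970.7, 4896.2, 4093.3 and 3803.6 on the 4 SD arrays. On the HFS arrays its signal ran from 1599.6 to 4516.7 with a median of 3236, and on the HFS+R arrays from 42.5 to 4195.4 with a median of 3614. The SD arrays were close together, whereas 9 of 10 HFS arrays had a lower signal than any of them, lowest in replicates 1, 3, 6 and 7 with 1599.6, 2048.1, 2518.4 and 1608.2. One HFS+R array, replicate 9, stood far from all the others: its MT3 signal of 42.5 was not detected, was below the lowest detected signal of that array, 78.3, and was 37.6 times lower than the next lowest MT3 signal. Of all probes on the beadchip, only 2 were detected on 23 arrays and lay on the remaining array at over 10-fold below their lowest signal elsewhere. They were those of MT3 on this array and of BEX3 on HFS replicate 9.

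On the log2 scale MT3 measured 11.93 ± 0.20 (SD, n = 4) on SD arrays, 11.59 ± 0.44 (SD, n = 10) on HFS arrays and 11.03 ± 2.02 (SD, n = 10) on HFS+R arrays. Without HFS+R replicate 9, the HFS+R level was 11.65 ± 0.50 (SD, n = 9). The groups overlapped, although 5 of 10 HFS arrays lay below the lowest SD array. The HFS vs. SD difference was −0.34 (95% interval −1.83 to 1.16, limma adjusted p = 0.878). HFS+R replicate 9 is in neither group but enters the spread that the 3 diets share in the fit. With HFS+R replicate 9 left out, the difference was −0.34 (95% interval −0.83 to 0.15, adjusted p = 0.569). For HFS+R vs. HFS the difference of −0.56 (SE 0.55, adjusted p = 0.519) became 0.06 (SE 0.19, adjusted p = 0.856) without it, so that its sign rested on 1 array. For HFS+R vs. SD the values were −0.90 (adjusted p = 0.529) and −0.28 (adjusted p = 0.590). No direction can be given for MT3 between HFS and HFS+R.

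MT2A, the widely expressed MT2 isoform and a common readout of zinc and glucocorticoid exposure, had signals of 833.7, 1574.3, 1247.9 and 584.5 on the SD arrays. On HFS arrays it ran from 679.2 to 1656.4 (median 1042) and on HFS+R arrays from 829.3 to 1515.7 (median 1148). The SD arrays split into a high and a low pair, with 0.90 on the log2 scale between 9.37 and 10.26, and all groups overlapped. On the log2 scale the levels were 9.82 ± 0.53 (SD, n = 4), 10.17 ± 0.40 (SD, n = 10) and 10.12 ± 0.22 (SD, n = 10) in SD, HFS and HFS+R. The HFS vs. SD difference was 0.36 (SE 0.20, limma adjusted p = 0.446), and 9 of 10 HFS arrays were above the SD mean. With 1 SD array left out it ran from 0.20 (without replicate 1) to 0.51 (without replicate 3, adjusted p = 0.286), and it was 0.11 with median scaling and 0.18 with array weights. The HFS+R vs. HFS difference was −0.05 (95% interval −0.36 to 0.26, adjusted p = 0.863).

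MT1E is one of the inducible MT1 isoforms. Its signals in SD were 2793.4, 2862.1, 2501 and 1170.6, the last from replicate 4, which was the lowest of all 24 arrays. HFS arrays ran from 1941.2 to 4054.1 (median 2372) and HFS+R arrays from 1991 to 3393 (median 2752). In the deposited signals the HFS median was thus below the SD median of 2647, while after Z normalization it was above it, at 11.32 beside 11.02 on the log2 scale. The means on that scale were 10.93 ± 0.37 (SD, n = 4) on SD arrays, 11.41 ± 0.31 (SD, n = 10) on HFS arrays and 11.36 ± 0.18 (SD, n = 10) on HFS+R arrays. On that scale, 10 of 10 HFS arrays and 10 of 10 HFS+R arrays lay above the SD mean, and 8 and 6 of them lay above the highest SD array.

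The HFS vs. SD difference of MT1E was 0.48 (SE 0.15, 95% interval 0.16 to 0.79), a 1.39-fold higher mean on the Z-normalized scale. This is not a fold of the deposited signals, whose HFS median was below the SD median. The unadjusted p of the difference was 0.00448 and its adjusted p 0.241 (limma). The difference was 0.30 without SD replicate 4, 0.59 without SD replicate 3, and 0.17 when arrays were scaled by their median, the setting that leaves the SD of each array as it was. HFS+R vs. SD gave 0.43 (SE 0.15, unadjusted p = 0.00920, adjusted p = 0.0953), with 0.25 without SD replicate 4 and 0.55 without SD replicate 3. HFS+R and HFS differed by −0.05 (95% interval −0.28 to 0.19, adjusted p = 0.830). MT1E did not pass the test in any comparison.

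MT1G, another inducible MT1 isoform, had SD signals of 328, 493.7, 325.2 and 204.1. HFS arrays ran from 174 to 386.8 (median 323.2) and HFS+R arrays from 191.7 to 436.6 (median 356.1). Its log2 levels were 8.23 ± 0.38 (SD, n = 4), 8.27 ± 0.34 (SD, n = 10) and 8.40 ± 0.31 (SD, n = 10) in SD, HFS and HFS+R. The groups overlapped throughout, and each high-fat group had 1 array well below the rest, HFS replicate 2 and HFS+R replicate 7. HFS vs. SD differed by 0.04 (95% interval −0.34 to 0.42, limma adjusted p = 0.947) and HFS+R vs. HFS by 0.13 (95% interval −0.16 to 0.41, adjusted p = 0.562). In the latter, 9 of 10 HFS+R arrays lay above the HFS mean, which HFS replicate 2 lowers.

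MT1X is an MT1 isoform with broad expression. Its SD signals were 1273.6, 1652.2, 1438.3 and 930.8, with HFS arrays from 701.1 to 1472 (median 1082) and HFS+R arrays from 980.3 to 1647.1 (median 1361). The log2 levels were 10.20 ± 0.25 (SD, n = 4), 10.23 ± 0.39 (SD, n = 10) and 10.30 ± 0.22 (SD, n = 10). They differed by less than the spread in every comparison: 0.03 for HFS vs. SD (95% interval −0.32 to 0.38, limma adjusted p = 0.958), 0.07 for HFS+R vs. HFS (adjusted p = 0.754) and 0.10 for HFS+R vs. SD (adjusted p = 0.799). HFS replicate 10 had the lowest signal, 701.1.

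MT1H, a further MT1 isoform, had the largest HFS vs. SD difference of the 6 genes. Its signals were low, from 117.5 upwards, where the lowest detected signal of an array was 69.1 to 95.6. The SD arrays had signals of 169.8, 195.3, 134.3 and 120.1. The 10 HFS arrays had 288.5, 173.4, 341.7, 326.6, 271.8, 437, 527.3, 301.2, 316.1 and 264.9. All HFS arrays but replicate 2 were thus above every SD array in signal. The 10 HFS+R arrays had 117.5, 414.5, 434.2, 150.1, 123.5, 157.5, 262.4, 465.5, 267.3 and 142.9. Split at their widest gap, 5 arrays were at 157.5 or less, near the SD signals, and 5 at 262.4 or more, within the HFS range. That gap was 0.69 on the log2 scale, from 7.35 to 8.04, and the widest among the HFS arrays was 0.58. Whether the HFS+R arrays form 2 sets was not tested.

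On the log2 scale MT1H measured 7.18 ± 0.20 (SD, n = 4) on SD arrays, 8.35 ± 0.52 (SD, n = 10) on HFS arrays and 7.78 ± 0.74 (SD, n = 10) on HFS+R arrays. The HFS vs. SD difference was 1.17 (SE 0.32, 95% interval 0.51 to 1.83), a 2.25-fold higher mean on the Z-normalized scale. Its unadjusted p was 0.00119 and its adjusted p 0.189 (limma). The HFS and SD arrays did not overlap on this scale, where the lowest HFS array was at 7.46 and the highest SD array at 7.45. Of all genes, 0.536% (53) had no overlap between these groups. None of the 6 members was free of overlap in HFS+R vs. HFS, where 0.152% of genes were, or in HFS+R vs. SD, where 4.01% were. The margin was narrow: with median scaling the lowest HFS array was at 8.01 and the highest SD array at 8.20, and in the deposited signals they were at 173.4 and 195.3. The size of the difference was less dependent on such choices, from 0.96 to 1.48 over the other settings and from 1.06 to 1.27 with any 1 array left out.

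For HFS+R vs. HFS, MT1H differed by −0.58 (SE 0.24, 95% interval −1.08 to −0.08, unadjusted p = 0.0256, limma adjusted p = 0.103). On the Z-normalized scale the HFS+R mean was 1.49-fold lower, 7 of 10 HFS+R arrays lay below the HFS mean, and 5 lay below the lowest HFS array. Without HFS+R replicate 2, one of the high arrays, the difference was −0.68 with an adjusted p of 0.0480, the 1 setting in which a metallothionein passed. For HFS+R vs. SD the difference was 0.60 (SE 0.32, 95% interval −0.07 to 1.26, adjusted p = 0.304), with 5 of 10 HFS+R arrays above the highest SD array. In the order SD, HFS+R, HFS, neither neighbouring pair of MT1H means differed beyond the test's threshold.

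**Figure D1:**
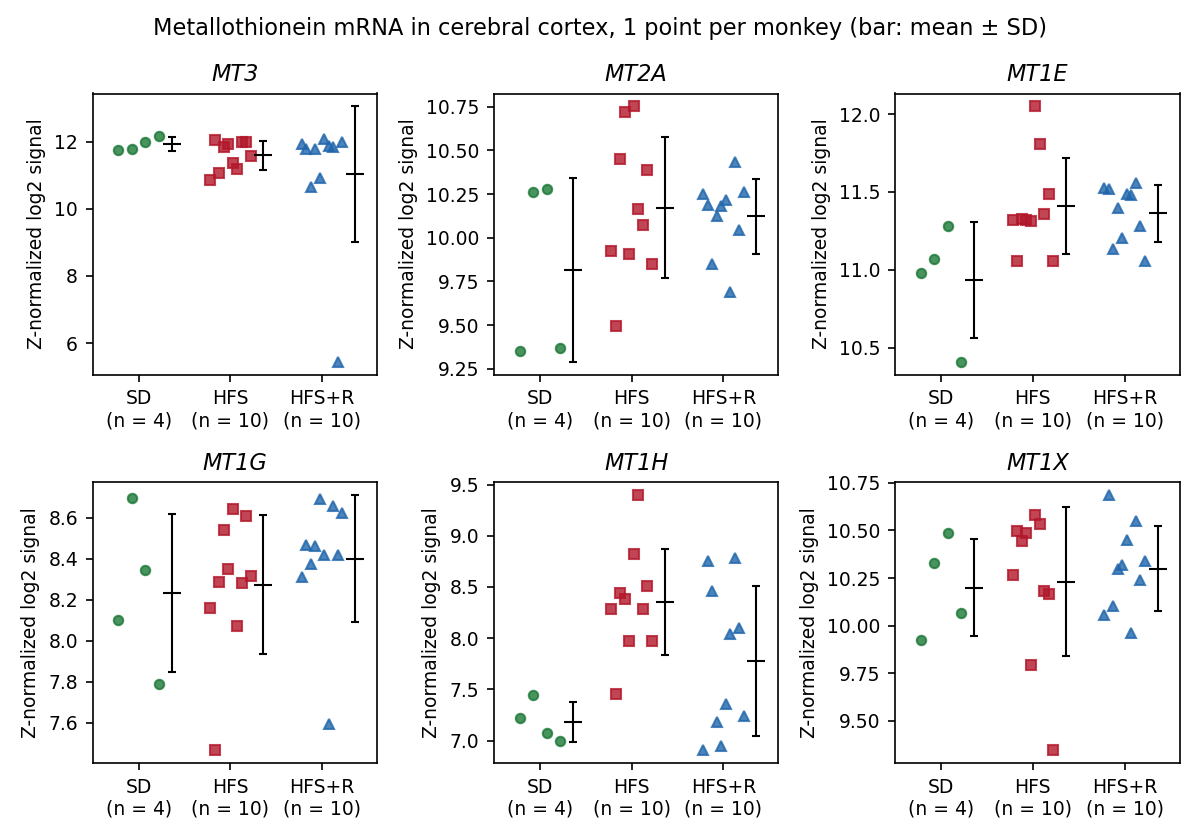
Level of each metallothionein gene by diet: the y axis is the log2 signal after Z normalization, each point is 1 monkey (4 on SD, 10 on HFS and 10 on HFS+R) and the bar is the mean ± SD. The MT1H points of HFS lie above those of SD by a narrow margin, those of HFS+R have 5 on each side of their widest gap, and 1 HFS+R array has MT3 at 5.44.

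Over the family, 0 of 6 genes passed an adjusted p under 0.05 in HFS vs. SD, where 0% of the 9884 genes did. The same was true of 0 of 6 in HFS+R vs. HFS, where 9.94% of all genes rose and 6.07% fell, and of 0 of 6 in HFS+R vs. SD, against 6.30%. At an unadjusted p under 0.05 the members were MT1E and MT1H in HFS vs. SD (12.6% of all genes), MT1H in HFS+R vs. HFS (31.4%) and MT1E in HFS+R vs. SD (20.4%). The study set looser thresholds, read here as a Z ratio beyond 1.5 either way, an unadjusted p below 0.05 and a false discovery rate below 0.3. A Z ratio divides the gap between 2 groups' mean Z scores by the SD of such gaps over all probes. At these, the same genes were past: MT1E (Z ratio 4.28) and MT1H (10.5) in HFS vs. SD, where 5.38% of genes were, MT1H (−5.14) in HFS+R vs. HFS, where 26.4% were, and MT1E (3.20) in HFS+R vs. SD, where 17.6% were. In these fits, only in HFS vs. SD was the share of members, 2 of 6, above that of all genes. This depended on the setting. With median scaling, 1 of 6 members was past these thresholds in HFS vs. SD, below the 23.4% of all genes. Without SD replicate 4, 1 of 6 members was, beside 1577 of 9857 genes. With only the groups compared, 1 of 6 members remained above the 0.668% of all genes. When SD replicate 1 or 2 was left out, neither a member nor any other gene (0%) was past these thresholds in HFS vs. SD. Without SD replicate 3 the members past them numbered 3 in HFS vs. SD, with 9.47% of all genes, and 2 in HFS+R vs. SD, with 15.2%.

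The median difference of the 6 members was 0.20 in HFS vs. SD, −0.05 in HFS+R vs. HFS and 0.24 in HFS+R vs. SD, beside −0.03, 0.02 and 0.01 over all genes. Members with a value above 0 numbered 5, 2 and 5 of 6, and 41.8%, 55.9% and 52.3% of all genes had one. The comparisons share arrays, so these figures are not independent of each other. Values of MT1G, MT1X, MT1E and MT2A near 0 changed sign with the scaling, as given in the closing section.

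**Figure D2:**
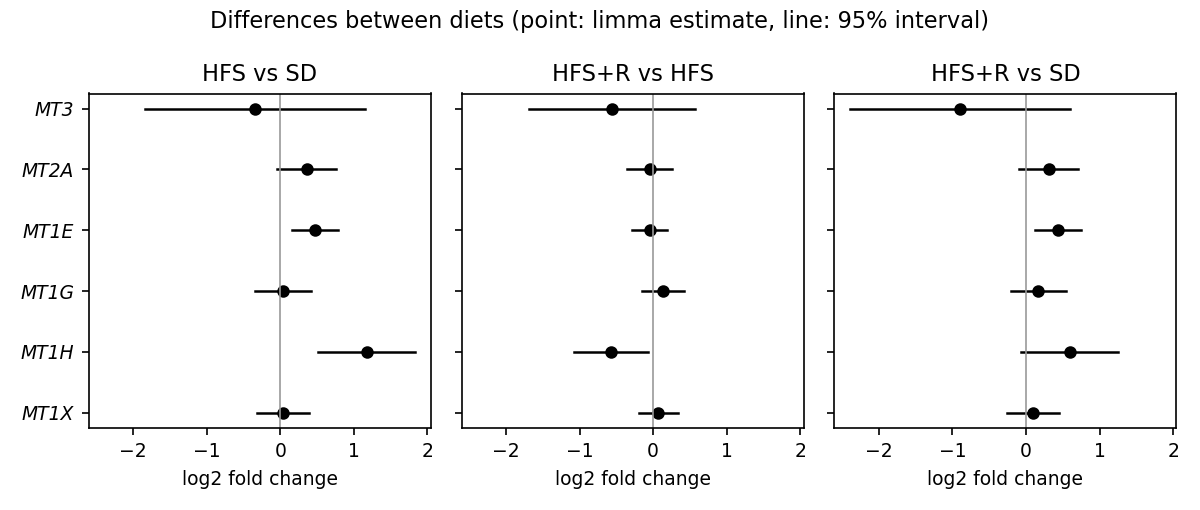
Difference of each metallothionein gene between diets: the x axis is the log2 fold change in HFS vs. SD, HFS+R vs. HFS and HFS+R vs. SD, with the limma estimate as a point and its 95% interval as a line. The intervals of MT1H and MT1E in HFS vs. SD, of MT1H in HFS+R vs. HFS and of MT1E in HFS+R vs. SD do not reach 0, while the interval of MT3 is the widest in each panel. HFS+R replicate 9, where MT3 was not detected, widens the MT3 interval in every panel, because the diets share 1 estimate of spread.

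The members varied more between monkeys on 1 diet than most genes did. The within-group SD was 0.60 for MT1H, 0.36 for MT2A, 0.33 for MT1G, 0.31 for MT1X and 0.27 for MT1E on the log2 scale, and the median gene had 0.17. MT1H was above 98.7% of genes in this measure and MT1E, the lowest of the family, above 86.3%. MT3 had 1.36, or 0.44 without HFS+R replicate 9, above 97.0% of genes. This spread between animals sets the width of the intervals above.

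Arrays that were high for one metallothionein probe were high for some of the others. The genes are near-identical, so probes of different members, MT2A included, may share signal, and this was not tested. MT2A and MT1G went together most closely over the 24 arrays (Pearson's r = 0.75, permutation p = 2e-05 from 100000 resamples, Spearman's rho = 0.66, permutation p = 0.00048). With all arrays of a group, r was 0.80 within HFS and 0.79 within HFS+R. Over all diets it was 0.73 without the arrays farthest from the MT2A median. HFS replicate 2 and HFS+R replicate 7 had the lowest level of their group for both genes, with MT2A signals of 679.2 and 829.3 and MT1G signals of 174 and 191.7. The within-group values include these arrays and may rest on them in part. Over all diets r was 0.71 without HFS replicate 2 and 0.74 without HFS+R replicate 7. Replicate 2 of HFS was also the lowest of its group for MT1H, at 173.4.

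Of the 15 pairs of members, 4 passed an adjusted permutation p under 0.05. Besides MT2A with MT1G (adjusted p = 0.0003), these were MT2A with MT1E (r = 0.66, permutation p = 0.00051, adjusted p = 0.00382, rho = 0.52), MT1E with MT1H (r = 0.59, permutation p = 0.00146, adjusted p = 0.0073, rho = 0.53) and MT2A with MT1X (r = 0.53, permutation p = 0.00768, adjusted p = 0.0288, rho = 0.61). Over all pairs of the 7258 genes detected on every array the median r was 0.01, and 0.451%, 1.48%, 2.79% and 4.66% of them had a higher r than these 4 pairs. The arrays farthest from the median of the first gene carried part of the relations, which fell to 0.48, 0.51 and 0.48 without them. Diet differences entered the pooled values as well. Within HFS, MT1E and MT1H had r = 0.84, and within HFS+R 0.23. MT2A with MT1E had 0.64 and 0.20, and MT2A with MT1X had 0.43 and 0.69. Differences between these within-group values were not tested.

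MT1H, despite its place in the family, was not tied to MT2A (r = 0.37, adjusted permutation p = 0.188) or MT1G (r = 0.11, adjusted permutation p = 0.748) beyond the threshold. Within HFS its r with MT2A was 0.63 and within HFS+R −0.16. MT3 had r of −0.17 to −0.01 with the other 5 genes (adjusted permutation p of 0.741 or more), and of −0.37 to −0.05 without HFS+R replicate 9.

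**Figure D3:**
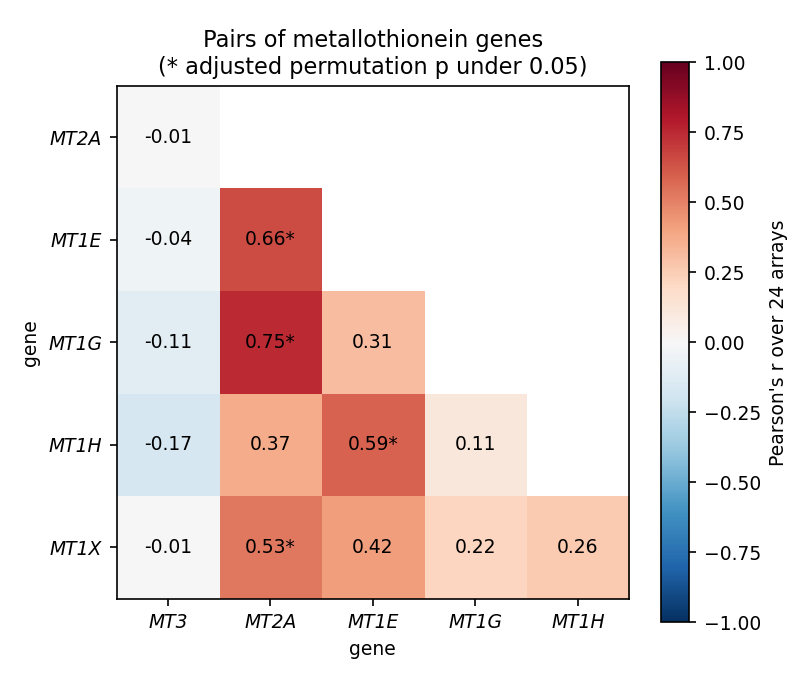
Pearson's r of each pair of metallothionein genes over the 24 arrays, as a colour from −1 to 1 and as a number, with an asterisk where the adjusted permutation p was under 0.05. The 4 pairs so marked are MT2A with MT1G, MT1E and MT1X, and MT1E with MT1H, while the MT3 column lies between −0.17 and −0.01.

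**Figure D4:**
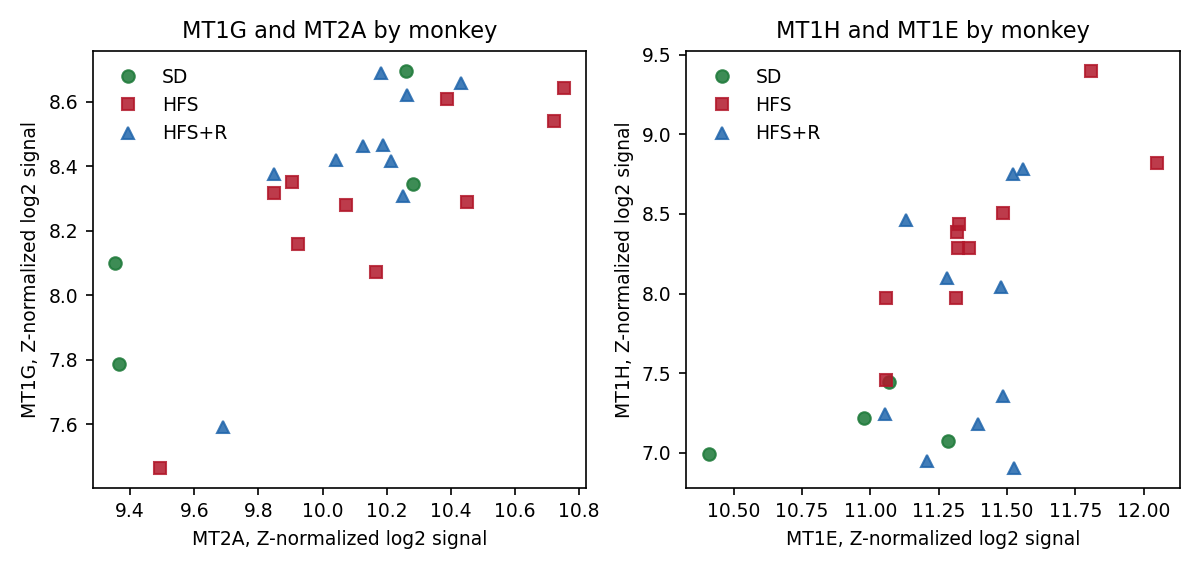
MT1G against MT2A and MT1H against MT1E, with 1 point per monkey and log2 signal after Z normalization on both axes. In the MT1G panel MT1G rises with MT2A over the arrays of all diets (r = 0.75), and slopes were not compared between diets. In the MT1H panel 5 HFS+R arrays have MT1H near the SD level at MT1E levels above the SD mean.

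Astrocyte markers were set beside the members because MT1 and MT2 are known from these cells. The level of the 10 measured markers, as a mean of genes scaled to SD 1, ran from −0.41 to 0.93 (median 0.32) on SD arrays, from −0.88 to 0.93 (median −0.41) on HFS arrays and from −0.61 to 0.75 (median 0.18) on HFS+R arrays. In HFS vs. SD, 0 of 10 markers had a difference above 0. With the marker level as a covariate, MT1H differed by 1.32 (SE 0.35) and MT1E by 0.60 (SE 0.16) between HFS and SD. Without the covariate these were 1.17 (SE 0.32) and 0.48 (SE 0.15). The limma adjusted p with it was 0.305 for both, just over the study's limit of 0.3. Neither they nor any other gene were then past the study's thresholds. Of the 6 members, 0 were correlated with the marker level at an adjusted permutation p under 0.05, the closest being MT1G (r = 0.42, permutation p = 0.0420, adjusted p = 0.252, rho = 0.35). With median scaling MT1G (r = 0.60), MT1E (r = 0.53) and MT1X (r = 0.51) passed, at adjusted permutation p of 0.0114, 0.0234 and 0.0234. The 3 measured red blood cell markers of 5 had a median difference of 0.95 in HFS vs. SD, with a level of −1.26 to 0.02 on SD arrays, −1.42 to 1.82 on HFS arrays and −1.64 to 1.48 on HFS+R arrays. The part of astrocytes or of blood in the metallothionein values was not tested.

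The systems known to act on metallothionein genes were examined through 5 lists. In HFS vs. SD, 0 genes of any list passed, in a comparison where 0% of all genes did. Of zinc sensing and transport genes, 16 of 25 were measured. MTF1, the zinc sensor that binds metallothionein promoters, differed by −0.26 (SE 0.10, limma adjusted p = 0.285) in HFS vs. SD and by −0.26 (adjusted p = 0.119) in HFS+R vs. SD. A relation of MTF1 mRNA to the metallothionein values was not tested. In HFS+R vs. HFS, 2 of 16 rose and 0 fell: SLC30A5, which carries zinc into the secretory pathway, by 0.45 (SE 0.10, adjusted p = 0.00419), and SLC39A9, a zinc importer of the ZIP family, by 0.28 (SE 0.07, adjusted p = 0.00817). The SLC39A9 call was lost with the array SD as a covariate (adjusted p = 0.0809). In HFS+R vs. SD, SLC30A7, another zinc carrier of the secretory pathway, fell by 0.60 (adjusted p = 0.0489), a call that was lost in 6 other settings and with any 1 of 15 arrays left out, SD replicate 3 among them (adjusted p = 0.0575). Without SD replicate 1 the difference was −0.41 (adjusted p = 0.209). SLC30A7 was lower in HFS vs. SD as well, by 0.72 (SE 0.18, limma adjusted p = 0.182), without passing, so the difference from SD was not particular to HFS+R.

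Of copper handling genes, 10 of 14 were measured, and 2 fell in HFS+R vs. HFS. They were the copper chaperone ATOX1 (−0.27, SE 0.07, limma adjusted p = 0.0173) and the copper importer SLC31A1 (−0.25, SE 0.08, adjusted p = 0.0253), and neither was past the test with median scaling (−0.09 and −0.19). ATOX1 also lost its call with the array SD as a covariate (adjusted p = 0.135), and SLC31A1 without HFS replicate 3 (adjusted p = 0.0521) or HFS replicate 4 (adjusted p = 0.0504). Of NRF2 pathway genes, which answer oxidative stress, 12 of 16 were measured and 3 rose in HFS+R vs. HFS. NFE2L2, which encodes NRF2 itself, differed by 0.49 (SE 0.10, adjusted p = 0.00336), glutathione reductase GSR by 0.18 (adjusted p = 0.0320) and sulfiredoxin SRXN1 by 0.23 (adjusted p = 0.0342). The GSR call was lost in 3 other settings and with any 1 of 4 arrays left out, and the SRXN1 call in 4 other settings and with any 1 of 8 arrays left out. Of glucocorticoid response genes, 16 of 19 were measured, with NR3C1, the glucocorticoid receptor, up by 0.29 (adjusted p = 0.00419, and 0.11 with the mean of its probes, adjusted p = 0.125) and its target ZBTB16 lower (−0.37, adjusted p = 0.00172, and −0.20 with median scaling, not past the test) in HFS+R vs. HFS. Of IL6 and acute phase genes, 10 of 17 were measured, and 1 rose in that comparison, IL6ST, the signalling subunit of the IL6 receptor, by 0.34 (adjusted p = 0.0265, lost in 3 other settings and with any 1 of 3 arrays left out). These counts, from 1 of 16 to 3 of 12 in a direction, stand beside the 9.94% of all genes that rose and the 6.07% that fell in HFS+R vs. HFS, with 0 of 6 metallothioneins. In HFS+R vs. SD, where 6.30% of genes passed, COX19, needed to load copper into cytochrome oxidase, fell by 0.31 (adjusted p = 0.0389), GCLC, which starts glutathione synthesis, fell by 0.28 (adjusted p = 0.0278), the glucocorticoid-induced transcription factor KLF9 (0.48, adjusted p = 0.00558) and NR3C1 (0.28, adjusted p = 0.0433) rose, ZBTB16 fell by 0.36 (adjusted p = 0.0151), and none of the IL6 list passed. Each of these 5 calls was lost in 1 to 6 other settings, and all but that of KLF9 with any 1 of 2 to 9 arrays left out, SD replicate 3 being one of them for COX19, GCLC and NR3C1.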

How the data were processed

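The authors made the signal intensity table from the beadchips with GenomeStudio 2011.1 (submitters' processing notes), without normalization, and deposited a detection p-value beside each intensity. A Z score for every probe on each array was deposited as well, and scores computed here differed from it by at most 5e-10. Replicates were separate monkeys, each with 1 array, and their number limits the precision.

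Each array's log2 signal was set to mean 0 and SD 1 (Z normalization), multiplied by 1.46 and shifted by 6.46 for all arrays alike. Of 47323 probes, 15531 had a detection p under 0.01 on 4 or more arrays, 12471 of these had 1 gene symbol, and the brightest stood for each of 9884 genes. Symbols came from the platform annotation, where 30113 probes have 1 symbol, 8 several and 17202 none listed. The 3 diets entered 1 linear model in limma 3.58.1 (R 4.3.3, 2-sided, Benjamini-Hochberg over all genes of a comparison). Correlations had 2-sided permutation tests (100000 resamples, Python 3.11.15, scipy 1.17.1), adjusted over 15 pairs or 6 genes. Both steps were tested on simulated data. Alternatives were quantile normalization, neqc (offset 16), median scaling, deposited Z scores, other filters and probe rules, a robust prior with a trend, array weights, a block for the replicate number, fits on the compared groups alone, array SD or astrocyte markers as a covariate, and each array left out.

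Named genes were all members and, of each list, up to 3 with the smallest p, of which those that passed are given, with MTF1. Members, lists and the rule were chosen with earlier results of these data known.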

Additional observations from a re-analysis of the deposited data

Results flagged for a closer look

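Of the 18 sets of arrays that 6 genes and 3 diets give, 3 held 1 array whose distance to the nearest other array was too large a part of the range of its group by Dixon's test, and chance marks about 1 in 20 such sets. MT3 on HFS+R replicate 9 was at 5.44 on the log2 scale (signal 42.5), with the next array of its group at 10.66. MT1G on HFS replicate 2 was at 7.46 (signal 174), with the next at 8.07, and MT1G on HFS+R replicate 7 was at 7.59 (signal 191.7), with the next at 8.31. On those MT1G arrays MT2A was also the lowest of its group, whereas on HFS+R replicate 9 none of the other 5 members stood apart in this way.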

How the results depend on the processing

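None of the 6 genes passed the limma test in HFS vs. SD or HFS+R vs. SD under any of 15 other settings or with any of the 24 arrays left out, and in HFS+R vs. HFS the count was 0 to 1 with an array left out (MT1H without HFS+R replicate 2). The count at the study's thresholds in HFS vs. SD, 2, was 1 with neqc, with median scaling, without a filter and with only the groups compared, 0 with the replicate block, the array SD covariate and the astrocyte covariate, and 0 to 3 with an array left out. Of all 9884 genes, 532 were past these thresholds, and with the block, the array SD covariate and the astrocyte covariate 0, 1 and 0 were, so that the members went with nearly every gene. In HFS+R vs. HFS the member count was 0 with the array SD covariate (18.3% of all genes). With an array left out it was 0 to 1 (24.1% to 27.6%). In HFS+R vs. SD it was 0 with median scaling (13.0% of all genes) and with the replicate block (1.06%). With an array left out it was 0 to 2 (15.2% to 19.0%). Median scaling moved the median of all genes to −0.16 for HFS vs. SD and to 0.11 for HFS+R vs. HFS, and 3 genes were then correlated with astrocyte markers in place of 0.

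MT1H kept its sign in every comparison and setting. Its limma adjusted p was 0.107 to 0.592 in HFS vs. SD and 0.0480 to 0.263 in HFS+R vs. HFS. In HFS vs. SD the sign was also kept by MT1E (0.17 to 0.60), MT2A (0.11 to 0.51) and MT3 (−0.66 to −0.26). MT1G kept it in HFS+R vs. HFS, and every member did in HFS+R vs. SD, so this does not set MT1H and MT1E apart. Signs that turned belonged to values that no test called, of 0.07 or less in size but for that of MT3 in HFS+R vs. HFS (−0.56), and the cause was not tested. MT1G in HFS vs. SD turned to −0.11 with median scaling, −0.12 with array weights, −0.12 with the replicate block and −0.11 to 0.20 with an array left out. For that comparison MT1X had −0.22 with median scaling, −0.038 with array weights, −0.13 with the array SD covariate and −0.062 to 0.13 with an array left out. In HFS+R vs. HFS, MT2A was 0.13 with median scaling and −0.12 to 0.016 with an array left out. MT1E there was 0.024 with quantile normalization, 0.024 with neqc, 0.18 with median scaling, 0.00080 with array weights and −0.085 to 0.026 with an array left out. MT1X ran from −0.029 to 0.11, and MT3 from −0.68 to 0.063, with an array left out.

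MT1E with MT1H was no longer correlated past the threshold with median scaling (r = 0.38, adjusted permutation p = 0.128), where MT1E with MT1G was (r = 0.57, adjusted permutation p = 0.0144). MT2A with MT1X lost the call without SD replicate 1 (r = 0.49), HFS replicate 6 (0.49), HFS+R replicate 7 (0.51) or HFS+R replicate 8 (0.51).

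The labels name no pairing of monkeys across diets by replicate number. Of 18 same-numbered pairs, 3 deviated together with r over 0.1, and 3 of 10 HFS+R arrays were closest to the HFS array of their number. Such values cannot exclude a pairing. With the number as a block, MT1H was 0.96 (adjusted p = 0.436) and MT1E 0.32 in HFS vs. SD, and MT1H −0.58 (adjusted p = 0.115) in HFS+R vs. HFS. MT3 gave no value when detection on all arrays was required. The 4 SD arrays limit every comparison with SD.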

Other observations

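The genes whose levels ran most like the family were sought among 7253 genes detected on all 24 arrays, with no test. The mean of the 6 members went most closely with TMEM176A (r = 0.72), CNPY2 (0.67), TWF2 (0.65), KRT10 (0.64) and PAQR4 (0.64). With the mean of each diet removed, these were NME4 (0.72), TMEM176A (0.70), TWF2 (0.69), RPL36 (0.67) and TAF10 (0.67), so that TMEM176A and TWF2 were in both sets. Within HFS the r of TWF2 with the family was 0.87, and within HFS+R 0.45. For MT1H alone, looked up after its values had been seen, the closest were ITM2A (0.65), YIF1A (0.64), PDCD2 (0.64), ARRB1 (0.64) and PEPD (0.62). Each r is the highest of many computed on the same arrays, which share their normalization.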
